A study of Mus musculus with 16 samples.

Results

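The subject here is a set of 43 genes that copy nuclear DNA or supply its building blocks, followed in a mouse muscle cell line that stops dividing as it differentiates. The members were taken by gene name from a table of 35275 genes, and all 43 were among the 11832 genes with a mean of at least 0.5 FPKM (fragments divided by gene length in kilobases and by the library's total). C2C12 is an established mouse myoblast line that leaves the cell cycle and fuses into myotubes when serum is withdrawn. The control group was wild type and came as 2 control lines, and the triple knockout (tKO) group lacked miR-1a-2, miR-1a-1 as well as miR-206, 3 microRNA genes of muscle, and came as 2 clones. All cells carried the designation PAX7 negative, and the labels list no other allele or agent. Poly(A) RNA was sequenced from subconfluent cultures in serum-rich growth medium (GM) and from cultures kept for 3 days in low horse serum (DM3). Each line gave 2 numbered replicates at each stage (BR1 and BR2 in the sample titles, called culture 1 and culture 2 here), so that each of the 4 combinations of genotype and stage held 4 libraries. A genotype group thus rests on 2 lines. The labels do not say how the lines were derived or what BR stands for and whether the numbered cultures were grown independently, so p-values measure the spread between these libraries, which may be partly technical.

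DNA replication starts where the origin recognition complex and its partners load the MCM helicase onto chromatin, and proceeds once kinases let Cdc45 and the GINS complex turn that helicase into the moving CMG complex. Primase and polymerase alpha lay down primers, polymerases epsilon and delta extend the leading and lagging strands while tethered to the PCNA clamp, and nucleases and ligase join the lagging fragments. Most of these genes are transcribed at the G1 to S transition through E2F sites in their promoters, and in muscle cells their transcription is known to be shut off when myoblasts withdraw from the cycle.

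Depth was 22642563 to 56585952 fragments per library, and the lowest fragment number of any member in a library was 20, for Fen1. The primary transcript that contains miR-206, listed as mmu-mir-133b, had 0 to 4 fragments in GM libraries, 59 to 608 in DM3 libraries of control cells and 14 to 152 in those of tKO cells. It does not check the labels, because the listed transcript reaches beyond miR-206 and the deposited values do not show which part of it was counted. Of 10 myotube markers, 8 passed the filter and all 8 rose on differentiation in both genotypes (limma, adjusted p; the share of all tested genes that rose was 23.2% in control and 24.9% in tKO cells). Summed over the list they went from 7.85 to 11.1 FPKM in control GM libraries to 609.1 to 1061 in control DM3, and from 9.96 to 72.8 in tKO GM to 332.5 to 1076 in tKO DM3. Of 6 myoblast markers, Pax7 was near 0 and Myod1 was listed at 0 in control GM. The other 4 averaged, in GM, 17.02 (control) and 12.5 (tKO) FPKM for Myf5, 39.5 and 22.1 for Des, 40.9 and 67.7 for Itga7, and 9.79 and 29.7 for Cdh15, the only 1 called between genotypes (1.47; limma, adjusted p = 0.00059). The fibroblast list (3 of 5 genes passed, with Tcf21 and Lum near 0) summed to 240.8 to 686 FPKM in GM and 699.3 to 1825 in DM3 libraries, nearly all of it Col1a1, which muscle cultures also express. In that list Pdgfra was lower in tKO GM (0.778 against 3.23 FPKM, limma adjusted p = 0.00477) and Dcn lower in tKO DM3 (9.5 against 30.1 FPKM, adjusted p = 0.0145). The adipocyte list stayed at 0.412 to 11.6 FPKM in sum. The part of these other genes in the results below was not tested. By FPKM, 1 library stood apart for the members: tKO clone 1, culture 1, DM3 had the lowest value of all 8 DM3 libraries for 24 of the 43. Its mean log2(FPKM + 1) over the members was 2.65 against 2.89 to 3.18 in the other DM3 libraries. Its size factor in median-of-ratios scaling, an alternative used below, was also the lowest of the 16 libraries (0.863, with 0.907 to 1.04 in the other DM3 libraries). That scaling would raise its values more than those of any other library, and the ranks were not repeated with it.

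Differentiation lowered nearly the whole set in both genotypes. In control cells 42 of 43 members fell (limma, Benjamini-Hochberg adjusted over all 11832 genes; 38.3% of all tested genes fell), and the member that did not pass was Pold2. In tKO cells 43 of 43 fell (36% of all tested genes). Differences are given on the log2(FPKM + 1) scale, so those of low genes are understated. The median difference of the members, DM3 minus GM, was -1.69 in control and -1.88 in tKO cells, where the median of all tested genes was -0.15 and -0.12. Under median-of-ratios scaling, which brings the all-gene medians to 0.01 in both genotypes, the members' medians were -1.50 and -1.72, with 41 and 42 members lower. With that scaling 3619 of all 11821 tested genes were lower in control cells and 3573 in tKO cells. For 42 members in each genotype, every DM3 library lay below every GM library (39.8% of all tested genes in control and 29.8% in tKO cells), and Pold2 was the exception in both. These are bulk samples, so fewer cycling cells and less RNA per cycling cell cannot be told apart. All 10 proliferation markers from outside the set also fell in both genotypes, their summed level going from 499.5 to 517.9 FPKM in control GM to 138.1 to 159.9 in control DM3 and from 322 to 629 in tKO GM to 66.8 to 184 in tKO DM3.

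**Figure D1:**
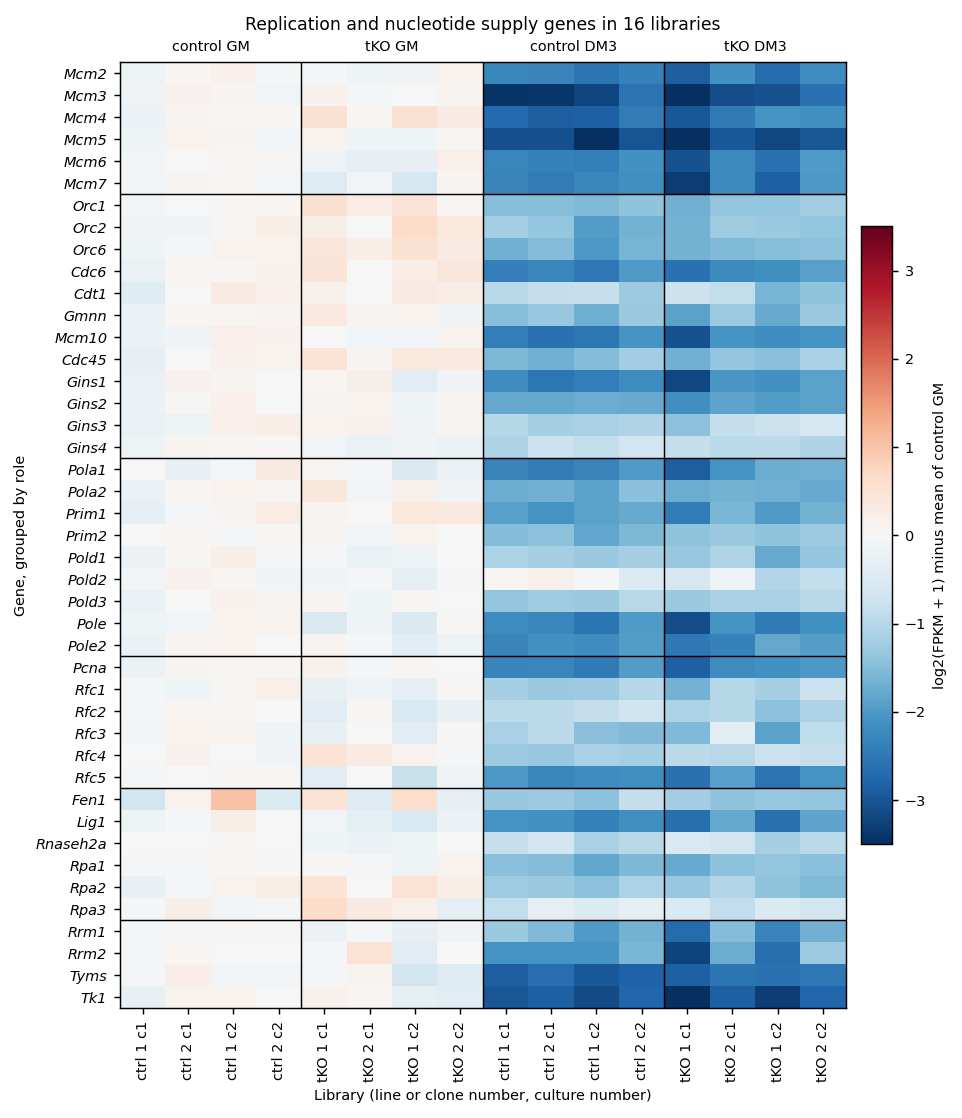
Colours show log2(FPKM + 1) minus the control GM mean for each of the 43 genes (rows, grouped by role) in each of the 16 libraries (columns, grouped by genotype and stage). The DM3 columns are blue for almost every gene, Pold2 is the palest row, and tKO 1 c1 in DM3 is the darkest column.

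As a share of the GM level of the same line and culture, the median member kept 27.7% of its FPKM at DM3 in control cells (range over genes 9.08% to 95.8%) and 24.3% in tKO cells (8.97% to 70.7%). From group means, 38 of 43 members in control and 37 in tKO cells ended below 50% of their GM level, where 19.2% and 17.2% of all tested genes did. Below 20% lay 17 members in each genotype, against 2.65% and 2.29% of all tested genes. MCM subunits kept a median of 15.8% in control and 15.9% in tKO cells, and nucleotide supply genes kept 18.5% and 19.0%. Loaders and activators kept 29.8% and 26.1%, polymerases and primase 28.7% and 26.6%, lagging-strand and single-strand binding factors 35.8% and 33.0%, and clamp and clamp loader genes 38.9% and 46.8%. These role medians are descriptions and were not tested against each other.

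**Figure D2:**
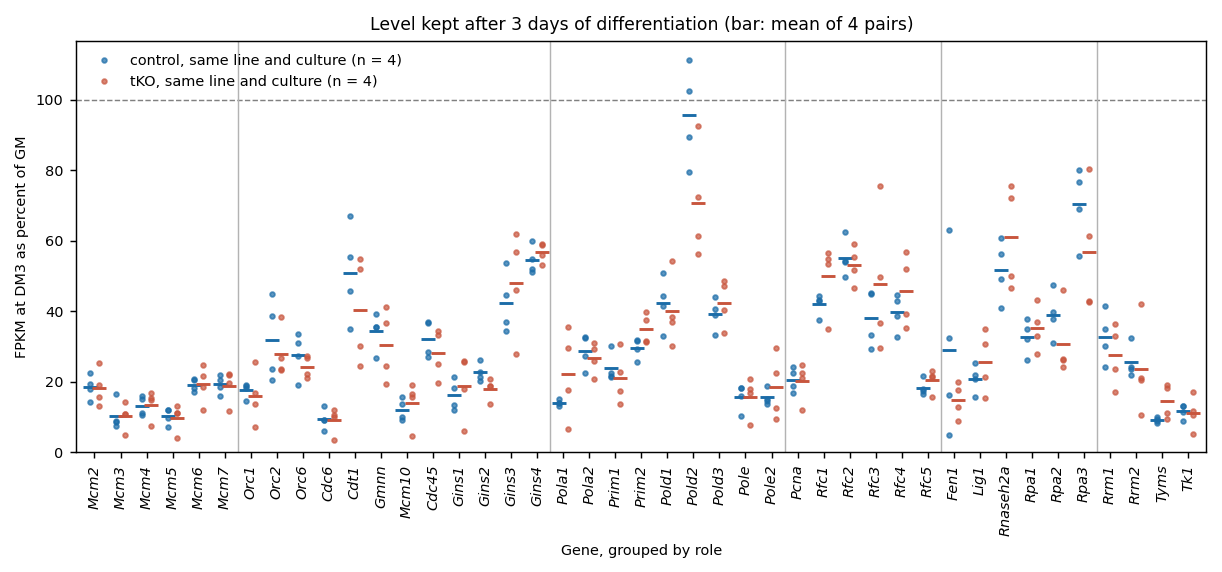
Each point is the FPKM at DM3 as a percent of the FPKM at GM for the same line and culture (4 pairs per genotype; bar, mean), for the 43 genes grouped by role. MCM genes kept 9.73% to 19.3% on average, while Pold2 and Rpa3 keep most of their level.

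The 6 MCM subunits form the ring-shaped motor of the replicative helicase. All 6 fell in both genotypes, by 2.30 to 3.17 on the log2 scale in control cells. Values in the following sentences are listed in the order line or clone 1 culture 1, line or clone 1 culture 2, line or clone 2 culture 1, line or clone 2 culture 2. Mcm5 had 73.5, 86.7, 88.5 and 75.9 FPKM in control GM and 8.72, 6.16, 8.63 and 9.11 in control DM3. In tKO cells it had 88.8, 73.5, 73.04 and 83.9 FPKM in GM and 3.43, 8.07, 9.47 and 9.3 in DM3. The stages were far apart in both genotypes, and the lowest DM3 value came from the library that stood apart. Mcm5 fell by 3.17 (SE 0.21; limma, adjusted p = 6.55e-09) in control and by 3.31 (SE 0.21; adjusted p = 4.18e-09) in tKO cells, and 10.2% ± 2.3 (SD, n = 4 pairs) and 9.73% ± 4.01 of its level remained. Mcm3 was close behind, going in control cells from 64.7 ± 6.06 FPKM (SD, n = 4) to 6.56 ± 2.27. Mcm6 had the smallest fall of the 6 in control cells, from 59.3, 65.5, 62.8 and 65.7 FPKM in GM to 12.2, 11.1, 11.4 and 13.7 in DM3. In tKO cells Mcm6 went from 55.8, 51.7, 51.6 and 71.04 FPKM in GM to 6.72, 9.55, 12.8 and 15.3 in DM3. Neither genotype showed any overlap between stages, and the falls were 2.30 (SE 0.18; limma, adjusted p = 2.64e-08) and 2.32 (SE 0.18; adjusted p = 2.48e-08).

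The subunits enter the ring in equal number, but their transcripts did not fall in proportion. Of the summed FPKM of the 6 genes, Mcm3 made up 15.9% ± 0.483 (SD, n = 4) in control GM and 10.6% ± 2.64 in control DM3. The share of Mcm5 was 20.0% ± 0.530 in control GM and 13.3% ± 1.65 in control DM3. Mcm2 moved the other way, from 20.97% ± 0.874 to 25.5% ± 2.41, as did Mcm6 (15.6% ± 0.957 to 19.8% ± 0.227) and Mcm7 (17.3% ± 0.404 to 22.1% ± 1.59). For each of these 5 genes the 4 GM shares and the 4 DM3 shares of control cells did not overlap. The share of Mcm4 also dropped without overlap in control cells (9.81% to 10.8% in GM, 8.14% to 9.60% in DM3). Its tKO shares overlapped between stages. In tKO cells the shares of Mcm3 (16.7% ± 0.877 to 11.3% ± 1.64) and Mcm5 (20.0% ± 1.19 to 12.6% ± 2.15) also dropped. Those of Mcm7 overlapped between stages in tKO cells (12.15% to 17.6% in GM, 16.2% to 21.5% in DM3). Mcm4 made up 10.2% ± 0.414 in control GM and 13.6% ± 2.32 in tKO GM, and the genotypes did not overlap (at most 10.8% in control, at least 11.6% in tKO). In DM3 they did not overlap either, by a narrow margin (at most 9.60% in control, at least 9.66% in tKO). The FPKM of Mcm4 did overlap between genotypes at both stages. These shares were not tested.

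The promoters of Mcm3 and Mcm5, the deepest falling MCM genes, are shown because they carry sequences known to bind E2F factors and NF-Y, the latter a factor that recognises CCAAT boxes. Both windows run from 250 bases before to 50 bases after the annotated start (RefSeq, GRCm38.p6), written 5′ to 3′ on the gene's strand. Mcm3 is at chr1:20820263-20820562 on the minus strand, and Mcm5 at chr8:75109259-75109558 on the plus strand. Capitals mark matches to TTTGGCGC, TTTCCCGC, TTTGGCGG or TTTCGCGC (E2F) and to CCAAT (NF-Y), on either strand.
Mcm3 promoter: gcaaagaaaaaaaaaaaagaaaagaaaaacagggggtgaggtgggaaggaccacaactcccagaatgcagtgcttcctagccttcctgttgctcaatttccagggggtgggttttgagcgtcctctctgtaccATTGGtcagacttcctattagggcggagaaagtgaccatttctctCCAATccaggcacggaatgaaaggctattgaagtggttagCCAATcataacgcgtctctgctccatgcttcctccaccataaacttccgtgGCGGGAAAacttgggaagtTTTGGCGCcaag
Mcm5 promoter: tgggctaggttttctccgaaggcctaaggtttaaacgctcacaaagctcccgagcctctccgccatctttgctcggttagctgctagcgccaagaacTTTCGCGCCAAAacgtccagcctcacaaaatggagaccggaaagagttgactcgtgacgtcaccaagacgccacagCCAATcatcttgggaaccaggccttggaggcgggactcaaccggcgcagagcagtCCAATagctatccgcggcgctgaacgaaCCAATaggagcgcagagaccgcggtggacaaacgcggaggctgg
Mcm3 held 2 E2F matches, starting 19 and 38 bases after the annotated start, and 3 CCAAT boxes upstream of it. In Mcm5, TTTCGCGC and the reverse of TTTGGCGC overlapped in 1 run of capitals whose first base is at -153 from the start, and there were 3 CCAAT boxes. Promoters were matched for 35 of the 43 members. Any of the 4 E2F letter strings was found in 16 of these 35 (45.7%), compared with 5.26% of 8491 tested genes and 2.37% of 32851 promoters in the table. CCAAT was found in 23 of 35 (65.7%), compared with 43.4% and 37.4%. The strings TTTGAA and TTCGAA, of the cell cycle homology region, were in 7 of 35 (20%), compared with 16.0% and 19.2%. The median change on differentiation was -1.91 in control and -1.86 in tKO cells for the 16 genes with an E2F match, and -1.62 and -1.88 for the 19 without, so the order turned between genotypes. For CCAAT it was -1.62 and -1.88 with a match (23 genes) and -1.91 and -1.86 without (12 genes). These medians were not tested.

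Among the 12 loaders and activators, all fell in both genotypes. Orc1, Orc2 and Orc6 are subunits of the origin recognition complex, Cdc6 and Cdt1 help it load the MCM ring, and Gmnn encodes geminin, which blocks Cdt1 after loading. Cdc6 was the deepest of these in share kept, with 9.36% ± 2.94 (SD, n = 4 pairs) of its GM level in control and 8.97% ± 3.78 in tKO cells, from 7.22 ± 0.894 FPKM in control GM. Cdt1 kept 50.7% ± 13.7 and 40.3% ± 15.2, and geminin 34.3% ± 5.26 and 30.3% ± 10.2. The level of Cdt1 in DM3 was still 15.5 ± 2.26 FPKM in control cells, above every other gene of this group except Gins4. Orc1, Orc2 and Orc6 kept 17.6% ± 2.07, 31.9% ± 11.7 and 27.6% ± 6.26 in control cells.

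Mcm10, which helps activate the loaded helicase, had the largest log2 fall of the group in control cells. It had 9.89, 13.3, 10.7 and 12.9 FPKM in control GM and 1.36, 1.2, 1.06 and 2.00 in control DM3. In tKO cells the values were 11.4, 10.8, 10.8 and 12.7 in GM and 0.518, 1.79, 2.04 and 2.00 in DM3. The stages did not overlap, and the first tKO DM3 value was far under the other 3. Mcm10 fell by 2.41 (SE 0.19; limma, adjusted p = 3.99e-08) in control and by 2.32 (SE 0.19; adjusted p = 5.63e-08) in tKO cells. Cdc45, which joins the MCM ring and GINS in the active helicase, kept 32.2% ± 5.2 and 28.1% ± 6.91 of its level. The 4 GINS subunits work as 1 complex but split into pairs: Gins1 kept 16.2% ± 4.38 and Gins2 22.7% ± 2.57 in control cells, while Gins3 kept 42.4% ± 8.63 and Gins4 54.4% ± 3.95. Gins4 had 31.5, 37.4, 38.4 and 36.95 FPKM in control GM and 16.3, 19.2, 21.05 and 22.1 in control DM3, and in tKO cells 33.6, 33.1, 30.7 and 30.8 in GM and 19.8, 18.5, 18.1 and 16.3 in DM3. Its stages were separate in each genotype, but every DM3 library kept more than 50% of the GM level of its pair. Gins4 fell by 0.85 (SE 0.10; limma, adjusted p = 3.58e-06) in control and by 0.79 (SE 0.10; adjusted p = 7.33e-06) in tKO cells.

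Of the 9 polymerase and primase genes, 8 fell in control and 9 in tKO cells. Polymerase alpha (Pola1, its catalytic subunit, and Pola2) and primase (Prim1 and Prim2) act together to start each new strand. Pola1 had the largest fall of the group in control cells, where it had 12.4, 11.7, 10.2 and 15.6 FPKM in GM and 1.63, 1.63, 1.43 and 2.35 in DM3. In tKO cells it had 12.6, 8.43, 11.98 and 10.6 FPKM in GM and 0.81, 3.00, 2.13 and 3.13 in DM3. The stages did not overlap in either genotype, and the tKO DM3 libraries were more spread than the control ones. Pola1 fell by 2.28 (SE 0.22; limma, adjusted p = 2.74e-07) in control and by 1.92 (SE 0.22; adjusted p = 1.57e-06) in tKO cells. The other 3 genes of the complex kept 28.7% ± 4.83 (Pola2), 23.9% ± 4.18 (Prim1) and 29.5% ± 2.93 (Prim2) of their level in control cells, against 14.04% ± 0.797 for Pola1 (SD, n = 4 pairs). The contrast was not as clear in tKO cells, where Pola1 kept 22.3% ± 12.9. There Pola2 kept 26.6% ± 4.53, Prim1 21.1% ± 7.38 and Prim2 35.05% ± 4.3. Polymerase epsilon, which copies the leading strand, had 2 subunits among the members, and these kept similar shares. Pole kept 15.6% ± 3.77 and Pole2 15.5% ± 2.18 in control cells, and 15.7% ± 5.68 and 18.5% ± 9.26 in tKO cells. Its subunits Pole3 and Pole4, outside the set, fell less. In control cells Pole3 went from 30.3 ± 2.1 to 22.0 ± 3.77 FPKM (SD, n = 4) and Pole4 from 34.5 ± 3.6 to 14.5 ± 2.8.

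Polymerase delta copies the lagging strand and also fills gaps in DNA repair, and its members kept more of their transcripts than Pole and Pole2. Pold1, the catalytic subunit, kept 42.4% ± 7.38 in control cells, and the accessory subunit Pold3 39.2% ± 4.56. Pold2, another accessory subunit, had 68.4, 77.02, 81.3 and 65.96 FPKM in control GM and 76.2, 68.9, 83.3 and 52.5 in control DM3. In tKO cells it had 66.4, 57.2, 70.3 and 70.3 FPKM in GM and 48.1, 35.1, 65.1 and 39.6 in DM3. The 2 stages overlapped in both genotypes, with control line 2 culture 2 the lowest control DM3 library and clone 1 culture 2 the lowest tKO one. With 70.2 ± 13.2 FPKM (SD, n = 4), Pold2 was the most abundant of the 43 members in control DM3. In control cells the difference between stages was -0.07 (SE 0.17; limma, adjusted p = 0.73; 95% interval -0.43 to 0.29), and it was 0.13 with median-of-ratios scaling. In tKO cells Pold2 fell by 0.52 (SE 0.17; adjusted p = 0.0146), a call that was lost with that scaling (-0.36, adjusted p = 0.133), without tKO clone 1 (-0.46, adjusted p = 0.105) and without tKO clone 1 culture 2 at DM3 (-0.39, adjusted p = 0.0554).

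In control cells Pold2 stayed high among the polymerase genes and Pola1 had the largest log2 fall. In tKO cells the largest change of the group (-2.16) was that of another gene. The promoter windows of Pold2 and Pola1 are printed as the contrast in control cells. They are from RefSeq (GRCm38.p6), both on the minus strand, at chr11:5878207-5878506 for the upstream 1 of the 2 Pold2 starts and chrX:93632106-93632405 for Pola1, with capitals as above.
Pold2 promoter: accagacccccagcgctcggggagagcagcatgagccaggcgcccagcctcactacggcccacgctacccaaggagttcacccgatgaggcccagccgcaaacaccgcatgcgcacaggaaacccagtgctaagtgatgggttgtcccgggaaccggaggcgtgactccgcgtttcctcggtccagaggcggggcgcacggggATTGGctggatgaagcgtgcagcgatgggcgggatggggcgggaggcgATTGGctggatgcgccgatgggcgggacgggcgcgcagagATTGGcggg
Pola1 promoter: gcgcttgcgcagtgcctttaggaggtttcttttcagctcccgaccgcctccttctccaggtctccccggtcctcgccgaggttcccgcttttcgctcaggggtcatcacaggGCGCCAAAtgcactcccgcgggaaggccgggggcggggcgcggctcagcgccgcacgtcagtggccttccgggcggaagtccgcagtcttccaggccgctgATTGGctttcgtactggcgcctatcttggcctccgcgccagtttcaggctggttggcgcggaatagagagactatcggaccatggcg
Pola1 held 1 E2F match, TTTGGCGC on the opposite strand, with its first base at -138 from the start, and 1 CCAAT box. Pold2 held 3 CCAAT boxes in this window and no match to the 4 E2F strings in either of its windows. The other polymerase genes with an E2F match were Pola2, Pold1, Pold3 and Pole2, and Prim1 had none. No promoter was matched for Pole and Prim2. In control cells Pold1 and Pold3, with a match, kept 42.4% and 39.2% of their level, and Prim1, without one, kept 23.9%.

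The sliding clamp Pcna holds polymerases on DNA, and Rfc1 to Rfc5 form the loader that opens it. Pcna, 1 of the most abundant members, had 118, 141, 144 and 141 FPKM in control GM and 26.4, 23.7, 27.2 and 34.04 in control DM3. In tKO cells it had 152, 143, 128 and 134 FPKM in GM and 17.98, 30.2, 28.8 and 33.3 in DM3. No DM3 library came near a GM library, and the fall was 2.26 (SE 0.16; limma, adjusted p = 9.37e-09) in control and 2.33 (SE 0.16; adjusted p = 6.68e-09) in tKO cells. The 5 loader subunits, which assemble in equal number, kept unequal shares. Rfc5 kept 18.3% ± 2.29 and 20.4% ± 3.29 (SD, n = 4 pairs), whereas Rfc1 kept 42.00% ± 3.00 and 49.9% (35.04% to 56.5% over the 4 pairs), Rfc3 38.1% ± 8.13 and 47.8% ± 20.2, and Rfc4 39.7% ± 5.3 and 45.8% ± 10.3. Rfc2 kept most, with 47.3, 50.9, 52.2 and 49.03 FPKM in control GM and 25.7, 27.5, 25.9 and 30.6 in control DM3. In tKO cells Rfc2 had 38.1, 34.4, 52.5 and 41.2 FPKM in GM and 22.5, 17.8, 24.5 and 22.8 in DM3. The stages were separate in each genotype, with a fall of 0.84 (SE 0.12; limma, adjusted p = 2.29e-05) in control and 0.89 (SE 0.12; adjusted p = 1.32e-05) in tKO cells. Rfc4 overlaps the abundant gene Eif4a2 by 194 bases and Rfc5 overlaps Wsb2 by 499 bases on opposite strands, and no source states if counting was stranded, so part of their reads could belong to those neighbours.

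Lagging-strand synthesis needs the flap nuclease Fen1, ligase I (Lig1), RNase H2, whose catalytic subunit is Rnaseh2a, and the single-strand binding complex of Rpa1, Rpa2 and Rpa3. All 6 genes fell in both genotypes. Lig1 had 43.5, 56.4, 47.99 and 49.96 FPKM in control GM and 10.97, 8.84, 10.5 and 10.3 in control DM3. In tKO cells it had 45.7, 33.95, 38.3 and 42.7 FPKM in GM and 7.07, 7.27, 13.4 and 13.1 in DM3. The DM3 values were all far below the GM values, and in tKO DM3 both libraries of clone 1 were lower than both of clone 2. Lig1 fell by 2.18 (SE 0.18; limma, adjusted p = 4.67e-08) in control and by 1.92 (SE 0.18; adjusted p = 1.52e-07) in tKO cells. Fen1 was listed at low and uneven levels, 1.19, 6.05, 2.79 and 1.5 FPKM in control GM and 0.386, 0.298, 0.45 and 0.945 in control DM3. It shares 156 bases with Tmem258 and 3253 bases with Gm10143, both on the opposite strand. Its values in GM ranged widely between libraries of 1 group, so its retained share (29.1% ± 25.2 in control cells) is imprecise.

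The 3 subunits of the single-strand binding complex kept unequal shares. Rpa1 kept 32.7% ± 5.03 (SD, n = 4 pairs) in control cells and Rpa2 38.97% ± 6.83. Rpa3, the smallest subunit, kept 70.4% ± 10.8, with 24.2, 23.5, 29.04 and 24.8 FPKM in control GM and 13.5, 18.04, 20.1 and 19.8 in control DM3. In tKO cells Rpa3 had 40.4, 28.7, 31.9 and 19.9 FPKM in GM and 17.3, 17.6, 13.6 and 15.97 in DM3. The groups stood apart by stage, though narrowly. Rpa3 fell by 0.50 (SE 0.17; limma, adjusted p = 0.0203) in control and by 0.83 (SE 0.17; adjusted p = 0.000566) in tKO cells. The control call was lost with median-of-ratios scaling (-0.30, adjusted p = 0.125) and without either of 2 libraries, control line 2 culture 1 in GM (adjusted p = 0.0621) or control line 1 culture 1 in DM3 (adjusted p = 0.0787), and without either control line (adjusted p = 0.229 without line 1 and 0.0978 without line 2). Rnaseh2a kept 51.8% ± 8.61 in control and 61.02% ± 14.9 in tKO cells, and it overlaps the abundant gene Prdx2 on the opposite strand by 181 bases.

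Deoxynucleotides are supplied by ribonucleotide reductase, made of the large subunit Rrm1 and the S-phase subunit Rrm2, and for thymidine by the synthase Tyms and the salvage kinase Tk1. All 4 genes fell in both genotypes. Tk1 had 43.8, 58.2, 57.6 and 53.1 FPKM in control GM and 5.73, 5.13, 6.48 and 6.9 in control DM3. In tKO cells it had 59.1, 42.3, 55.3 and 40.9 FPKM in GM and 3.09, 4.49, 6.43 and 6.93 in DM3. Every DM3 value was a small fraction of the GM values, and Tk1 fell by 2.94 (SE 0.19; limma, adjusted p = 3.95e-09) in control and by 3.04 (SE 0.19; adjusted p = 3.16e-09) in tKO cells. Tyms kept 9.08% ± 0.701 in control cells, the least of all 43 members, and 14.4% ± 4.88 in tKO cells. Rrm1 kept the most of the 4, with 107, 112, 107 and 113 FPKM in control GM and 44.1, 27.00, 37.3 and 34.1 in control DM3. In tKO cells Rrm1 had 94.01, 90.3, 104 and 101 FPKM in GM and 16.1, 21.4, 37.8 and 33.2 in DM3. The stages did not overlap, and Rrm1 fell by 1.62 (SE 0.20; limma, adjusted p = 4.16e-06) in control and by 1.88 (SE 0.20; adjusted p = 8.09e-07) in tKO cells. Rrm2 was the most abundant member in GM, at 203 ± 8.79 FPKM (SD, n = 4) in control and 209.5 ± 55.6 in tKO cells, and it was still at 51.7 ± 9.6 and 49.2 ± 28.5 in DM3.

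Other genes of the pathway, from a list of 45 that are not members, followed the same course. Of these, 41 fell in each genotype and none rose, where 38.3% and 36% of all tested genes fell. Asf1b, a histone chaperone at the fork, had the largest fall of the list (-2.62 in control and -2.73 in tKO cells), and Wdhd1, which ties the helicase to polymerase alpha, followed in control cells (-2.44). Rrm2b, the ribonucleotide reductase subunit used outside S phase, went in control cells from 4.15 ± 0.781 FPKM (SD, n = 4) to 5.47 ± 0.547, which did not pass the test. In a list of 31 cell cycle regulators, of which 30 passed the filter, 20 fell and 3 rose in control cells and 21 fell and 5 rose in tKO cells. The 3 that rose in control cells were Cdkn1a and Cdkn1b, inhibitors of cyclin-dependent kinases, and Rb1, the retinoblastoma repressor of E2F factors. Cdkn1a rose from 239.8 ± 87.4 to 449.9 ± 36.7 FPKM in control and from 243 ± 113 to 375 ± 74.8 in tKO cells (limma, adjusted p = 0.0107 and 0.0466). The largest falls were those of Mybl2, a transcription factor of cycling cells (-2.77 in control and -3.31 in tKO cells), and of Ccne2, a cyclin of S-phase entry, in control (-2.46) or Fbxo5, an inhibitor of the anaphase-promoting complex, in tKO cells (-2.90). In tKO cells Cdkn1b (0.92) and E2f5 (0.77) rose most.

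The fall of the members was compared between genotypes through the interaction of genotype and stage. None of the 43 passed (limma; 1 at an unadjusted p under 0.05, 0.254% of all tested genes passed, and voom on fragment numbers also gave 0 members). The interaction was negative, a numerically larger fall in tKO cells, for 26 of 43 members, where 5367 of all 11832 tested genes were negative. That majority depended on scaling: 26 members were negative with median-of-ratios scaling and 19 with TPM scaling. Tyms had the largest difference between genotypes, 0.47 (SE 0.22; limma, adjusted p = 0.451; 95% interval 0.01 to 0.93). It had 1.49, 1.35, 1.92 and 1.6 FPKM in differentiated control cells and 1.54, 2.03, 2.11 and 2.27 in differentiated tKO cells, ranges that overlap. For Pcna the interval of the difference in fall was -0.54 to 0.40, and for Mcm5 it was -0.77 to 0.50.

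Loss of the 3 microRNA genes was compared directly within each stage. In GM none of the 43 members passed the test between tKO and control cells (limma; 5 at an unadjusted p under 0.05; 2.06% of all tested genes passed; voom also gave 0). In DM3 none passed either (5 at an unadjusted p under 0.05; 3.38% of all tested genes passed; voom also gave 0). The median difference of the members was -0.01 in GM, with 20 above and 23 below 0, and -0.02 in DM3, with 19 above and 24 below. The members' differences ran from -0.33 to 0.37 in GM and from -0.59 to 0.36 in DM3. Between genotypes the 4 libraries of each group stood fully apart for 2 members in GM, Orc6 higher and Rrm1 lower in tKO cells (14% of all tested genes stood apart). In DM3 they did so for 4 members, Prim2 and Rfc4 higher and Gins2 and Rfc2 lower in tKO cells (8.52% of all tested genes). As shares of the 43, both are near or under the background. Within single cultures the sign was not stable: in GM 26 of 43 members were higher in tKO cells in culture 1 and 12 in culture 2, and in DM3 13 were higher in culture 1 and 25 in culture 2.

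**Figure D3:**
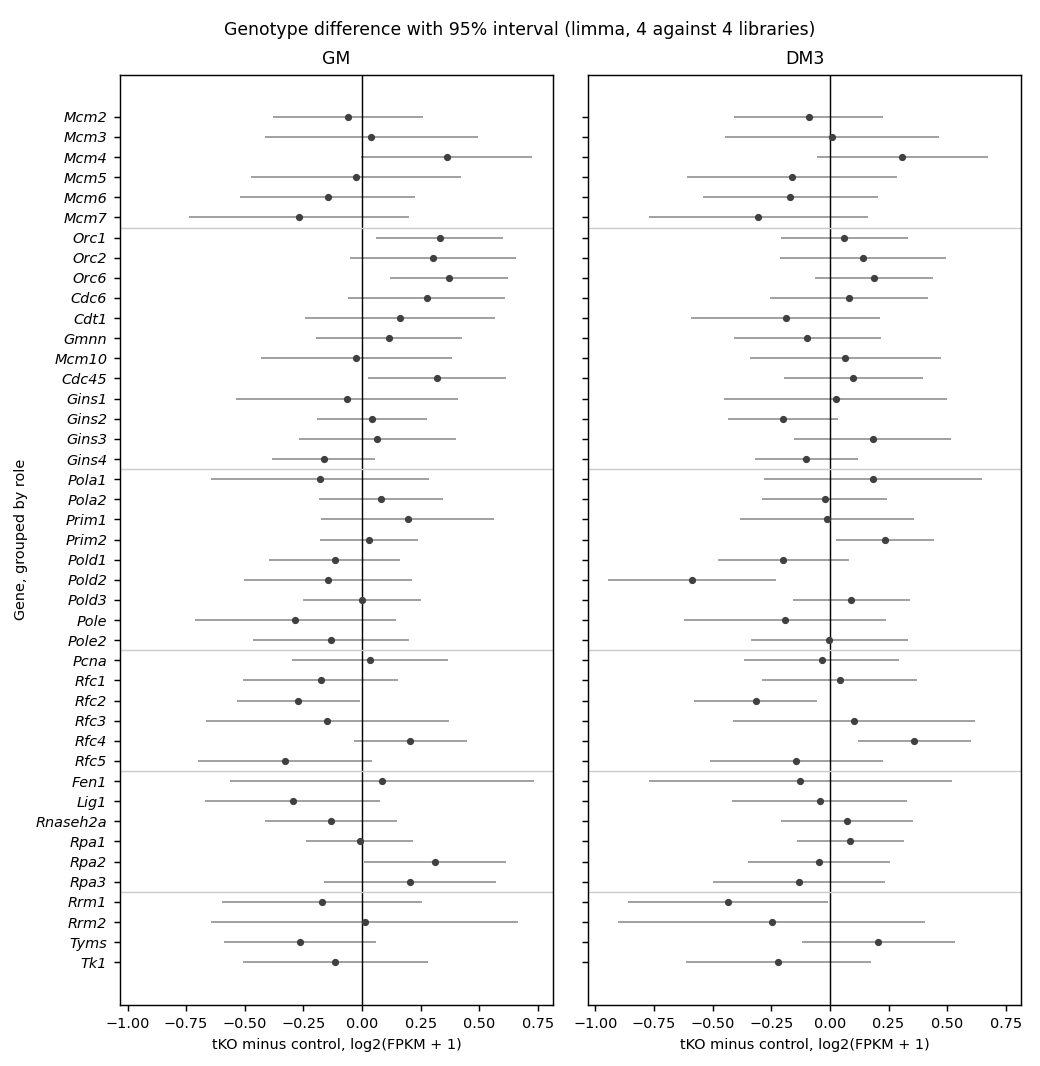
Points are tKO minus control differences in log2(FPKM + 1) with 95% intervals from limma (4 against 4 libraries), for the 43 genes by role, at GM (left) and DM3 (right). The points scatter around 0 at both stages, from -0.33 to 0.37 in GM and from -0.59 to 0.36 in DM3.

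The largest genotype difference of any member was that of Pold2 in DM3, -0.59 (SE 0.17; limma, adjusted p = 0.0717), with 76.2, 68.9, 83.3 and 52.5 FPKM in control and 48.1, 35.1, 65.1 and 39.6 in tKO cells. The ranges overlapped, and 3 of the 4 tKO libraries were below every control library. Without tKO clone 2 culture 1 or without control line 2 culture 2 at DM3, Pold2 passed the threshold. Orc6 had 18.3, 22.5, 19.4 and 22.2 FPKM in control GM and 27.9, 30.3, 24.1 and 25.4 in tKO GM, a difference of 0.37 (SE 0.12; limma, adjusted p = 0.118). All 4 tKO values were above all 4 control values, but the test did not pass. Rfc4 in DM3 had 6.59, 7.25, 6.31 and 6.94 FPKM in control and 8.57, 9.7, 8.29 and 9.34 in tKO cells, 0.36 (SE 0.11; limma, adjusted p = 0.104).

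Pola1 is a reported target of miR-206, so its transcript was examined in relation to the microRNA sequence. miR-1 and miR-206 share a seed and are known to rise during muscle differentiation. The mature miR-206 is shown with its seed (bases 2 to 8) in capitals, from RefSeq (GRCm38.p6, chr1:20679055-20679076, plus strand).
mmu-miR-206-3p: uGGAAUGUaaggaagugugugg
The longest annotated 3′ UTR of each member was searched on the transcript strand for ACATTCCA (8 bases), ACATTCC and CATTCCA (7 bases), the shorter strings being parts of the longer (GENCODE release M21, GRCm38). A match was found in 6 of 43 members (14%), compared with 19% of 10806 tested genes with a 3′ UTR. The 8-base match was in 1 member, Rrm1 (2.33%, compared with 4.46%). The members' UTRs are shorter, with a median of 526 bases against 1190. The matches are printed because pairing with the seed is the known contact of a microRNA with its targets, with the matched bases in capitals. They lie at chrX:93305084-93305090 (Pola1, minus strand), chr11:98921583-98921589 and chr11:98922909-98922915 (Cdc6, plus strand), chr5:30060477-30060483 (Tyms, minus), chr1:33454036-33454042 (Prim2, minus), chr5:65262278-65262284 (Rfc1, minus) and chr7:102469196-102469203 (Rrm1, plus).
Pola1 site: gatgtttcactcACATTCCttctat
Cdc6 site 1: ttttcccctttcACATTCCtaaaca
Cdc6 site 2: ctcatagaatacACATTCCctctgg
Tyms site: ggatgagccctcACATTCCctcata
Prim2 site: cccccagcgaatACATTCCtgtttg
Rfc1 site: tgggactgctacACATTCCtgtccc
Rrm1 site: accatttccaaaACATTCCAtcattc
Only the Rrm1 site has the A opposite the first base of the microRNA that makes it 8 bases long, and another match of 7 bases, CATTCCA, follows it in the same UTR at chr7:102469205-102469211.

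None of the 6 genes with a match passed the test between genotypes at either stage. In growth medium Pola1 was at 12.5 ± 2.28 FPKM (SD, n = 4) without the knockout and at 10.9 ± 1.85 with it, a difference of -0.18 (SE 0.22; limma, adjusted p = 0.727; 95% interval -0.64 to 0.29). In DM3 it was 1.76 ± 0.404 in control and 2.27 ± 1.07 in tKO cells, 0.18 (SE 0.22; adjusted p = 0.729; 95% interval -0.28 to 0.65). The 4 tKO DM3 values span the control values on both sides, and without tKO clone 2 the difference was -0.027. The sign also changed with the culture: tKO minus control was 0.12 in culture 1 and -0.47 in culture 2 in GM, and -0.09 and 0.45 in DM3. The interaction was 0.36 (SE 0.31; limma, adjusted p = 0.7). The difference in GM and in DM3 was 0.28 and 0.08 for Cdc6, -0.26 and 0.21 for Tyms, 0.03 and 0.23 for Prim2, -0.18 and 0.04 for Rfc1, and -0.17 and -0.43 for Rrm1. Rrm1, with the 8-base match, thus had negative differences at both stages (adjusted p = 0.712 and 0.289, limma).

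**Figure D4:**
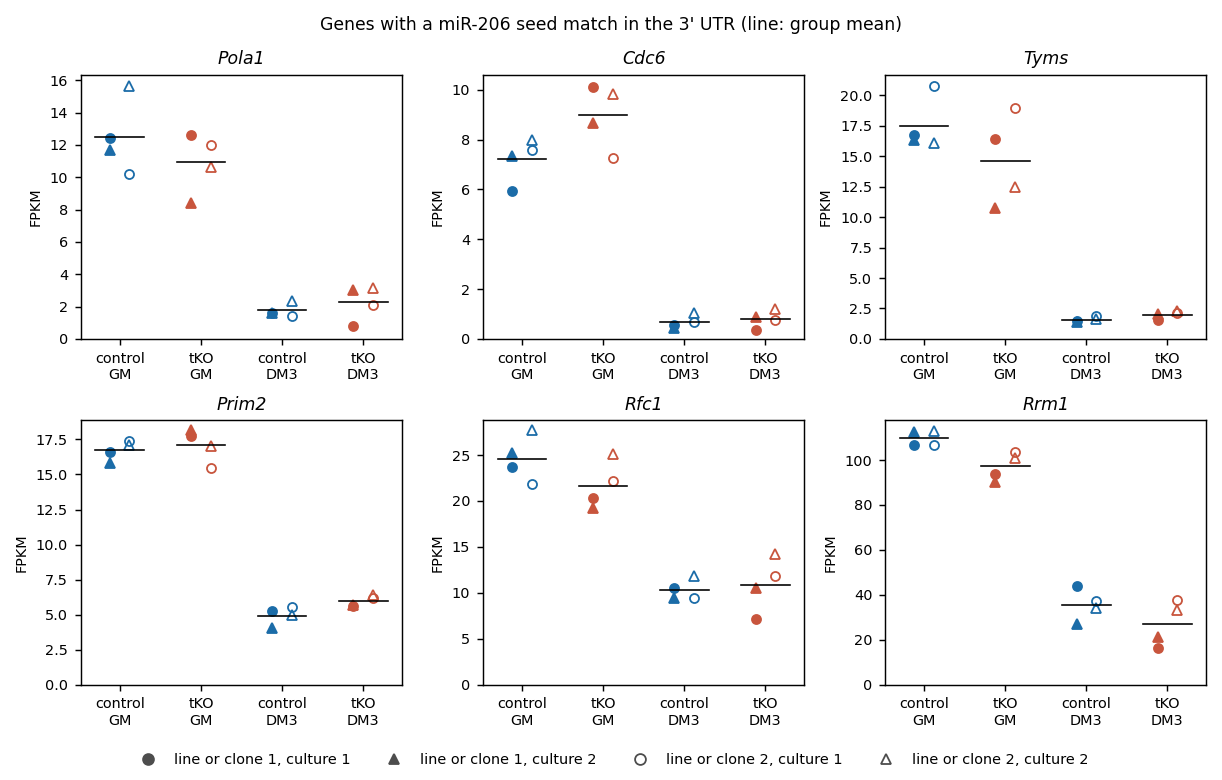
FPKM of the 6 genes with a miR-206 seed match in the 3′ UTR in each library, by group (blue, control; red, tKO; filled, line or clone 1; open, line or clone 2; circle, culture 1; triangle, culture 2; line, group mean). Points of the 2 genotypes mix within a stage, except for Rrm1 in GM and Prim2 in DM3, while the stages stand apart for all 6 genes.

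The 2 tKO clones differed from each other in several members. Averaged over the stages, 4 of 43 members were higher in clone 2 than in clone 1 (limma; 3.16% of all tested genes were), and 31 of 43 differences were above 0, with a median of 0.17 against 0.03 for all tested genes. All 10 proliferation markers (median 0.38) and the 3 fibroblast markers tested (median 0.65) were also above 0, with none called, and the 5 myoblast markers tested were below 0 (median -0.34), with Des called (-1.53; limma, adjusted p = 0.00122). Their part in the clone difference was not tested. Mcm7 had, in tKO GM, 51.5, 45.5, 65.2 and 74.4 FPKM and, in tKO DM3, 6.07, 8.87, 14.2 and 16.6, the first 2 values of each from clone 1. Both libraries of clone 2 were above both of clone 1 at each stage, and clone 1 was also below all control libraries (65.2, 72.7, 75.1 and 68.3 in GM and 13.4, 13.5, 12.01 and 15.02 in DM3). The clone difference was 0.74 (SE 0.12; limma, adjusted p = 0.00557). Mcm7 overlaps Cops6 by 64 bases and Ap4m1 by 421 bases, both on the opposite strand.

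Rrm2 had the largest clone difference. It had 196, 155, 287 and 199.6 FPKM in tKO GM and 20.6, 31.9, 60.6 and 83.7 in tKO DM3. In control cells it had 192, 202, 214 and 204 FPKM in GM and 46.5, 47.4, 46.7 and 66.1 in DM3. Clone 1 was below every control library in DM3, while clone 2 overlapped the control range there. The clone difference was 0.95 (SE 0.18; limma, adjusted p = 0.00997). The 2 clamp loader genes Rfc5 and Rfc3 were the other members called. Rfc5 had 13.8, 10.2, 18.2 and 16.7 FPKM in tKO GM and 2.14, 2.21, 4.17 and 3.57 in tKO DM3, against 17.7, 18.8, 18.05 and 18.97 and 3.82, 3.23, 2.96 and 3.4 in control cells. Rfc3 had 12.98, 11.9, 15.5 and 16.2 FPKM in tKO GM and 4.74, 3.52, 11.7 and 8.05 in tKO DM3, against 14.6, 17.2, 17.2 and 14.03 and 6.53, 5.02, 7.77 and 4.67 in control cells. At both stages clone 1 was below clone 2 in each culture for both genes, and for Rfc5 it was below every control library as well. The differences were 0.57 (SE 0.12; limma, adjusted p = 0.0165) for Rfc5 and 0.70 (SE 0.17; adjusted p = 0.0327) for Rfc3. With median-of-ratios scaling the call of Rfc3 was lost (limma, adjusted p = 0.0619). The count with that scaling was still 4, another member having passed, where 358 of all 11821 tested genes were higher. Without the library that stood apart, tKO clone 1 culture 1 at DM3, 4 members were still called. The count fell to 2 (Mcm7 and Rrm2) without clone 2 culture 1 in GM, without clone 1 culture 2 in GM, or without clone 2 culture 1 in DM3, and rose to 11 without clone 1 culture 2 in DM3. The share of all tested genes called without each of these libraries is not given here, so these counts have no background beside them.

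**Figure D5:**
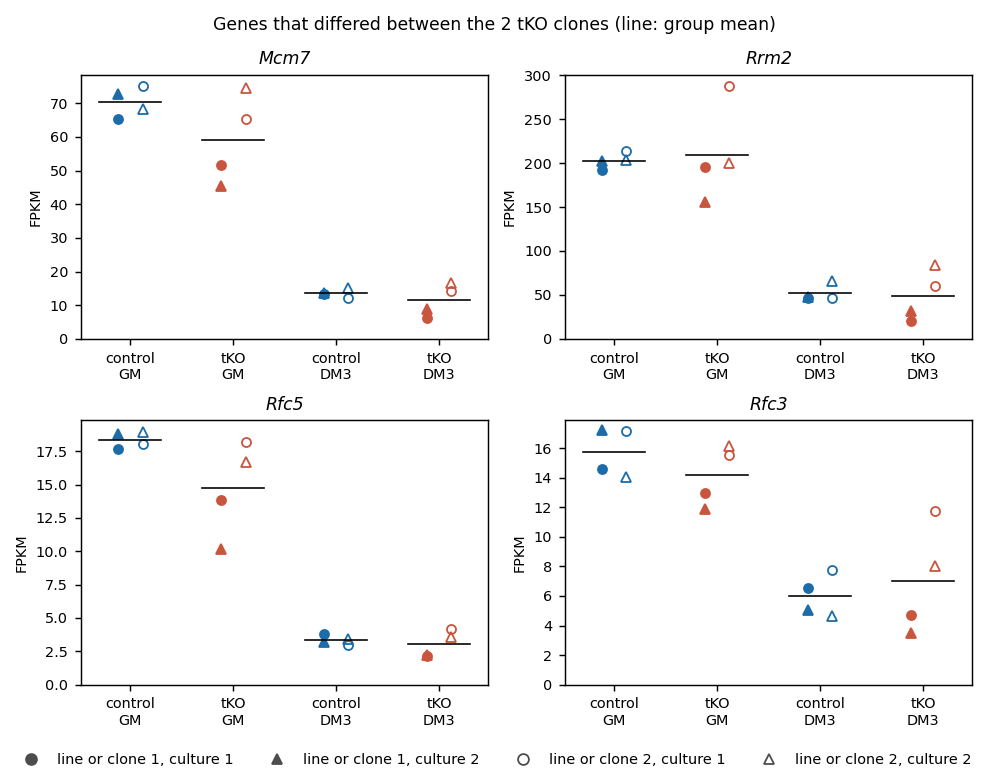
FPKM of Mcm7, Rrm2, Rfc5 and Rfc3 in each library by group (symbols: filled, line or clone 1; open, line or clone 2; circle, culture 1; triangle, culture 2; line, group mean). In the tKO groups the open symbols lie above the filled ones of the same stage for all 4 genes.

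Between the 2 control lines none of the 43 members passed the test (limma; 0 at an unadjusted p under 0.05; 0% of all tested genes passed; voom was not run on lines), and 38 differences were above 0 (median 0.08), as were 7496 of all 11832 tested (median 0.03). With median-of-ratios scaling 29 of 43 were above 0 (median 0.05). Because each genotype holds 2 lines, the genotype comparison was repeated without each clone. With clone 1 alone against control, 5 members passed in GM (Orc1 and Rpa2 higher, Mcm7, Rfc2 and Rfc5 lower in tKO cells; 11.1% of all tested genes passed). In DM3 with clone 1 alone, 6 passed, all lower (Mcm6, Mcm7, Pold2, Rfc2, Rrm1 and Rrm2; 9.6% of all tested genes passed). With clone 2 alone no member passed at either stage, where 1.51% of all tested genes passed in GM and 4.78% in DM3. Whether clone 1 or clone 2 is nearer to the effect of the deletions cannot be told apart with 1 clone each.

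Some members also differed by culture number, a label shared by all groups. In DM3, 5 of 43 differed between cultures 2 and 1 (limma; 12% of all tested genes did): Mcm3 (0.59) and Pole2 (0.37) were higher, and Cdt1 (-0.43), Pold2 (-0.49) and Rnaseh2a (-0.39) lower in culture 2, with limma adjusted p from 0.0201 to 0.0497. Cdt1, for example, had 15.3, 17.3, 16.9 and 12.3 FPKM in control cells and 18.1, 9.34, 16.8 and 11.1 in tKO cells at that stage, the second and last values of each being culture 2. In 3 of the 4 lines culture 2 was the lower, and control line 1 was the exception. The count was 0 without control line 2 culture 1, control line 2 culture 2 or tKO clone 1 culture 2 at DM3, and 13 without tKO clone 2 culture 1. For these counts too the share of all tested genes is not given here. With median-of-ratios scaling the calls of Mcm3 (adjusted p = 0.0785) and Pole2 (adjusted p = 0.0812) were lost, leaving 0 higher and 3 lower, and the calls over all genes went from 1072 higher and 350 lower to 623 higher and 943 lower. Of 19 alternatives, Mcm3 lost its call in 16, Pole2 in 15 and Cdt1 in 12. As a share of 43 the 5 are at the background. Of the 8 myotube markers tested, 6 were lower and 2 higher in culture 2 at DM3 (-1.02 to 0.36), and 3 were called, all lower. Tmem8c (-0.89), Myh3 (-0.85) and Ckm were among the lower ones. Whether the culture difference in the 5 members goes with the stage of differentiation was not tested. In GM no member passed the test between cultures (limma; 5 at an unadjusted p under 0.05; 3.41% of all tested genes passed; voom was not run for this contrast).

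Outside the members, the list of other pathway genes gave 1 call between genotypes, Tk2, the mitochondrial thymidine kinase, in DM3: 5.04 ± 0.368 FPKM (SD, n = 4) in control and 6.81 ± 0.556 in tKO cells (0.37, SE 0.10; limma, adjusted p = 0.0462). The regulators also gave 1, the repressive E2F family member E2f5, at 8.18 ± 0.474 FPKM in control cells and 17.9 ± 1.48 in tKO cells of DM3 (1.04, SE 0.15; limma, adjusted p = 0.000821). The 4 tKO DM3 values of E2f5, 15.7 to 19.1 FPKM, were all above the control ones, 7.77 to 8.83. In GM neither list gave a call (limma; 4 of 45 and 3 of 30 at an unadjusted p under 0.05).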

How the data were processed

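The authors deposited 1 table of FPKM values per gene and library without pooling; STAR, DESeq and mm10 are named in the submitters' processing notes, with no roles, and the counting program, strand setting and annotation are not given in the sources used here. In each library FPKM multiplied by gene length gave whole fragments for 100% of values (tolerance 0.05), from which depth and fragment numbers were worked out. Groups came from sample titles. Genes with a mean of at least 0.5 FPKM (11832) were tested on log2(FPKM + 1) with limma 3.58.1 in R 4.3.3 (all 16 libraries, group means, trend and robust moderation, Benjamini-Hochberg adjustment, threshold 0.05); line and culture contrasts used line-by-stage and genotype-by-stage-by-culture means. limma was tested on simulated data. voom ran on fragment numbers as an alternative. Of other alternatives, scaling (TPM, median-of-ratios), pseudocount, filter, moderation, blocks and left-out lines or libraries were tried.

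Promoters came from RefSeq and 3′ UTRs from GENCODE M21. Members, lists and tests were chosen with earlier results of these data known. Members with values in full were Pola1, those called in a genotype, interaction or line contrast, and the 1 of each role with the largest and the smallest fall in control cells; of the other lists, genes with the 2 largest falls or rises called were named. Cdt1, Mcm3, Pole2, Rnaseh2a, Orc6, Rfc4, Tyms, Rrm2b and Rb1 were added after their values were seen. Expression of the microRNAs was not analysed here. 1 gene of the other lists that the rule would name is not reported here.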

Additional observations from a re-analysis of the deposited data

Results flagged for a closer look

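In 4 of the 80 groups of 4 libraries examined for the genes described in full, 1 library lay far from the other 3, about as many as chance gives (about 1 in 20). Rrm2 in control DM3 was 66.1 FPKM in line 2 culture 2, with the others at 46.5 to 47.5. Mcm5 in control DM3 was 6.16 FPKM in line 1 culture 2, with the others at 8.63 to 9.12. Mcm10 in tKO DM3 was 0.518 FPKM in clone 1 culture 1, with the others at 1.79 to 2.04; this is the library that was lowest for most members. Pcna in control GM was 118.4 FPKM in line 1 culture 1, with the others at 140.9 to 144.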

How the results depend on the processing

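The fall on differentiation kept 39 to 42 calls in control and 40 to 43 in tKO cells under every alternative run; the filter of 5 FPKM, which leaves fewer members to test, gave the lowest counts. The interaction and the control line contrast gave 0 throughout. Between genotypes in GM the count was 0 except without tKO clone 2 (5). In DM3 it was 6 without tKO clone 2, 1 with cultures taken as a replicate block (Pold2, adjusted p = 0.0258), 2 with that replicate block nested in stage (Pold2 and Rfc4), and 0 to 1 when single libraries were left out (Pold2). The cause was not tested. For the clones the block gave 7 calls, leaving out single libraries 2 to 11, and line and stage terms without their interaction, chosen after seeing the data, 5. Shares of all tested genes called without single libraries are not given here. For cultures in DM3, median-of-ratios scaling gave 3 and leaving out single libraries 0 to 13 (0 without control line 2 culture 1, control line 2 culture 2 or tKO clone 1 culture 2, and 13 without tKO clone 2 culture 1); in GM leaving out single libraries gave 0 to 1 (Tyms). Signs reversed for Pola1 in DM3 without tKO clone 2 (-0.027) and for Pold2 in control cells with median-of-ratios scaling (0.13), with the block within each stage (0.13) and without control DM3 line 2 culture 2 (0.058; leaving out single libraries gave -0.16 to 0.058). With the block within each stage Pold2 lost its call in tKO cells (-0.32, adjusted p = 0.078). Rfc5 and Rfc3 lost their clone call in 3 and 6 of their alternatives. Same-numbered cultures of the 2 genotypes within a stage correlated from -0.224 to 0.558 (mean 0.218) in their deviations from group means, and different-numbered ones had a mean of -0.219; not every pair was above 0.1, so the number was not taken as a pairing, although it goes with a shared shift in many genes. The block within stage gave 635 calls over all genes in GM (244 without it) and 748 in DM3 (400 without it). The line and culture as a replicate block left the counts on differentiation at 42 and 43. With 4 libraries from 2 lines a group, the 95% intervals of the members' genotype differences reached 0.21 to 0.65 to either side on the log2 scale, and low members such as Fen1 (20 to 357 fragments) are the least precise.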
